A study of Rattus norvegicus with 8 samples.

Results

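Matrix metalloproteases and their tissue inhibitors were followed in the ventral prostate of TRAP rats, a transgenic line that develops adenocarcinoma of the prostate. The set holds 7 proteases (Mmp7, Mmp12, Mmp3, Mmp13, Mmp9, Mmp2 and Mmp14) and 3 inhibitors (Timp1, Timp2 and Timp3), taken as all probes of the arrays that carry those gene names. This gave 10 genes on 11 probes of 41012, since Mmp2 has 2 probes. Of the 10 genes, 9 were among the 23186 that entered the test, and Mmp13 was too dim to enter it. The set was selected on gene names with the ratios of these arrays over the reference already known, that of Mmp7 among the highest, so those ratios are described here and not tested.

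The treated rats (Telmisartan 302, 303, 305 and 306) were 4 heterozygous TRAP males that drank telmisartan, which blocks type 1 receptors of angiotensin II, at a daily 10 mg/kg. Their treatment began at 3 weeks of age and lasted 12 weeks. The 4 control rats were heterozygous male TRAP rats on basal diet and tap water (Control 102, 103, 104 and 106). All 8 were 15 weeks old, and the labels give their strain as SD. In the TRAP line the transgene, a viral large T antigen, is driven by the probasin promoter, which is active in prostate epithelium, so both groups carry it. Each TRAP prostate, labelled with Cy5, was hybridised on its own 2-colour array against normal ventral prostate of F344 males at 6 weeks of age, labelled with Cy3. Every level below is log2 of TRAP over that reference, so that 1 unit is a 2-fold difference, and the 2 channels differ together in dye, strain, transgene and age.

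Matrix metalloproteases are zinc-dependent enzymes that are made as inactive precursors and, once cleaved, cut proteins of the extracellular matrix and of the cell surface. The tissue inhibitors of metalloproteases bind the active site and block it. In prostate, Mmp7 (matrilysin) is known as a product of epithelial cells, Mmp12 as the elastase of macrophages, Mmp9 (gelatinase B) of neutrophils and macrophages, and Mmp2 (gelatinase A) and its membrane-bound activator Mmp14 largely of stromal cells.

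Well above background in Cy5 were 59.2% to 68.1% of the gene spots in telmisartan rats and 64.7% to 76.8% in control rats, and the share in Cy3 was 48.2% to 52.6% on the 8 arrays. Of 10 luminal epithelial marker genes, 9 were kept, and their mean was near that of normal prostate, at -0.25 to 0.03 in telmisartan rats and -0.23 to 0.12 in control rats. The arrays lay on 2 slides with 2 rats of each group on each. Telmisartan rats held positions 1 and 2 and control rats positions 3 and 4 of both slides, so that position and treatment cannot be told apart. Separate animals are named for the arrays, but 1 array per rat leaves no technical repeat of a whole array.

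The proteases Mmp13, Mmp12, Mmp3 and Mmp7 lie in 1 run of 10 neighbouring protein-coding genes on rat chromosome 8, all of them of the Mmp family, in the order Mmp13, Mmp12, Mmp1b, Mmp3, Mmp1, Mmp10, Mmp8, Mmp27, Mmp20 and Mmp7. The other members lie apart, Mmp2 on chromosome 19, Mmp9 on 3, Mmp14 on 15, Timp1 on X, Timp2 on 10 and Timp3 on 7. Promoters of 7 of the 10 members were found in a RefSeq table of the build GRCr8, each from 250 bases before to 50 bases after the gene start. The 4 from chromosome 8 are shown because they belong to 1 gene cluster that holds Mmp7 and Mmp12, the members with the highest ratios over the reference, beside Mmp3 and Mmp13, which were near the detection limit. Capitals mark the AP-1 letters TGANTCA, which read the same on both strands, and the near form TGAGTAA. Each run is the 150 bases that end just before the gene start, 5′ to 3′, and all lie on the plus strand.
Mmp7, chr8:13132893-13133042: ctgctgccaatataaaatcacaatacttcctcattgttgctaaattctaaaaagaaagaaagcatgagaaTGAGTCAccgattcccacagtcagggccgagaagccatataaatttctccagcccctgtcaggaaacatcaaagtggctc
Mmp12, chr8:12866502-12866651: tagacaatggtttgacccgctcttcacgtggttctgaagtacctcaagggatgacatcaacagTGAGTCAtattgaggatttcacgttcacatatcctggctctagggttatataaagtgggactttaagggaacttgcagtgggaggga
Mmp3, chr8:12925131-12925280: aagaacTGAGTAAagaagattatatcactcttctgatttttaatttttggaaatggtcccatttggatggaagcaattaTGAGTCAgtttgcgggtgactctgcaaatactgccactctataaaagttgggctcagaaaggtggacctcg
Mmp13, chr8:12782679-12782828: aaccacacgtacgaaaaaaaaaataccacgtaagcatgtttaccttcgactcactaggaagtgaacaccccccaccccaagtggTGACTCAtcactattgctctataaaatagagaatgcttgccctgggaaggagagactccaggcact

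TGANTCA began 80 bases before the gene start in Mmp7, 87 in Mmp12, 71 in Mmp3 and 66 in Mmp13. It was present in 4 of the 7 member promoters and in 7.33% of all 33469 promoters of the same length. TATAAA, searched on both strands, was in the same 4 promoters and in 14.2% of all, beginning 43 bases before the start in Mmp7 (and again at 140), 39 in Mmp12, 32 in Mmp3 and 47 in Mmp13. The form TGAGTAA, added to the search after the promoters had been seen and also read on both strands, was in Mmp3 and Timp1, 2 of the 7, and in 2.9% of all. The Timp1 promoter held it 108 bases before the start and held neither of the other motifs.
Timp1, chrX:3771123-3771272, minus strand: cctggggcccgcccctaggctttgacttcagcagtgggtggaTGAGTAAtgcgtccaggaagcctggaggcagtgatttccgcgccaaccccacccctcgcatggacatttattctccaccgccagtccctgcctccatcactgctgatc
These matches describe letters only, and nothing is drawn from them about the levels of the genes.

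Mmp7, which cleaves a wide range of matrix and cell surface proteins, had the highest ratio over the reference of all 23186 genes tested in control rats. It stood at 4.65, 7.77, 7.34 and 6.93 in Telmisartan 302, 303, 305 and 306 and at 7.31, 7.16, 7.51 and 7.19 in Control 102, 103, 104 and 106. Means were 6.67 ± 1.39 in telmisartan rats and 7.29 ± 0.16 in control rats (SD, n = 4 each), or 102-fold and 157-fold over normal prostate. The control rats lay close together, and Telmisartan 302 lay far below the other 7 rats. Without that rat the treated rats spanned 6.93 to 7.77, on both sides of every control rat.

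The Mmp7 value rests on a single spot per array, read by the following 60-base probe, shown because this spot gives the largest ratio in the data.
Mmp7 probe: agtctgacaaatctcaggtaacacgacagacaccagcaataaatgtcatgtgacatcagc
Its uncorrected Cy5 intensity was 153520, 483413, 489397 and 381328 in Telmisartan 302, 303, 305 and 306, against 449056 to 472173 in the 4 control rats. The Cy3 intensity of the same spot, which reads the reference, was 1397, 347, 594 and 521 on the telmisartan arrays and 515 to 700 on the control arrays. Telmisartan 302 thus had both the dimmest TRAP signal and the brightest reference signal for Mmp7. No spot of any member was marked as saturated.

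Mmp12, the macrophage elastase, was the second highest member and ranked 112 among all genes tested by its ratio in control rats. It stood at 2.77, 3.42, 3.04 and 3.15 in Telmisartan 302, 303, 305 and 306 and at 3.13, 3.34, 2.99 and 3.16 in Control 102, 103, 104 and 106. Means were 3.09 ± 0.27 in telmisartan rats and 3.15 ± 0.14 in control rats (SD, n = 4 each), or 8.54-fold and 8.89-fold over normal prostate. The groups overlapped, and the lowest of the 8 rats was again Telmisartan 302.

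Mmp3 (stromelysin 1), which activates other metalloproteases, was at the detection limit. Its ratio was -0.23, -0.27, -0.31 and -0.33 in Telmisartan 302, 303, 305 and 306 and -0.32, 0.21, -0.04 and 0.26 in Control 102, 103, 104 and 106. The TRAP signal was well above background in 1 of 4 telmisartan rats and 4 of 4 control rats, and the reference signal on 0 of 8 arrays, so no fold over normal prostate is given. Control 102 lay in the range of the treated rats and the other 3 control rats lay above it.

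Mmp13 (collagenase 3), which cuts fibrillar collagen, was dimmer still. It was well above background in 0 of 4 telmisartan rats and 3 of 4 control rats, and in the reference on 0 of 8 arrays, and it did not enter the test. Its values were -0.26, 0.39, -0.14 and 0.38 in Telmisartan 302, 303, 305 and 306 and -0.01, 0.06, -0.58 and -0.08 in Control 102, 103, 104 and 106, with overlap between the groups. Mmp3 and Mmp13 were thus close to background in glands where their neighbour Mmp12 was well above background in all 8 rats.

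Mmp9, gelatinase B, was measured by a probe printed 10 times on each array. It was at 0.07, 1.41, 0.80 and 0.55 in Telmisartan 302, 303, 305 and 306 and at 0.96, 0.55, 0.69 and 0.87 in Control 102, 103, 104 and 106. Telmisartan 302 and Telmisartan 303 were the lowest and the highest of the 8 rats, and the control rats lay between them. The reference was well above background on 0 of 8 arrays, so the fold was set by the dimmest signals that were well above background. In control rats, of which 4 of 4 had a TRAP signal above background, this gave at least 1.55-fold in the processing used here. That bound depends on the processing, since the control mean was a lower 0.43 in log2 with no background correction. In telmisartan rats the same rule gave 1.48-fold, which is no bound, because only 3 of 4 had a TRAP signal above background and Telmisartan 302 did not. Repeat spots of this probe on 1 array had an SD of 0.12 to 0.21, which holds no error between arrays.

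Mmp2, gelatinase A, lay below the reference in all 8 rats. The brighter of its probes, also printed 10 times, gave -1.03, -0.49, -0.37 and -0.74 in Telmisartan 302, 303, 305 and 306 and -0.77, -0.94, -0.31 and -0.51 in Control 102, 103, 104 and 106. Means were -0.66 ± 0.30 in telmisartan rats and -0.63 ± 0.28 in control rats (SD, n = 4 each), or 1.58-fold and 1.55-fold under normal prostate. This sign holds after loess, which centres each array over its whole brightness range, and it turned under median centring of the arrays, where control rats stood at 0.63. That scaling moved the median of all genes in control rats to 0.67 from 0.05, so Mmp2 was then close to the median gene and not above it.

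The second Mmp2 probe, with 1 spot per array, gave -0.60, -0.47, -0.48 and -0.74 in Telmisartan 302, 303, 305 and 306 and -0.58, -0.75, -0.25 and -0.57 in Control 102, 103, 104 and 106. It too was below the reference in all 8 rats, with a smaller spread. The probes are shown because they overlap by 21 bases at the end of the first and the start of the second, and 3 of those bases differ: G6T, A13G and C19T, counted from 1 at the start of the overlap, with the base of the first probe before the position. Capitals mark those bases.
Mmp2 probe with 10 spots: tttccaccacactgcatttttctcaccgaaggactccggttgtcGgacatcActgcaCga
Mmp2 probe with 1 spot: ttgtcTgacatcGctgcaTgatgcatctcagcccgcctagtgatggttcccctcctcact
The part of these bases in the values was not tested.

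Mmp14 (MT1-MMP), the membrane protease that activates the Mmp2 precursor, was below the reference as well. It stood at -1.67, -0.04, -1.01 and -1.20 in Telmisartan 302, 303, 305 and 306 and at -0.69, -0.82, -0.52 and -1.23 in Control 102, 103, 104 and 106. The telmisartan rats spread over 1.62, wider than the control rats and with Telmisartan 302 lowest and Telmisartan 303 highest of all. The mean was -0.98 ± 0.68 in telmisartan rats and -0.81 ± 0.30 in control rats (SD, n = 4 each). Like that of Mmp2 its sign turned under median centring, to 0.43 in control rats, where the median of all genes stood at 0.67.

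Timp1, an inhibitor of most of the secreted proteases above, was the third member with a clear excess over the reference. Its 10-spot probe gave 2.07, 1.73, 1.81 and 1.94 in Telmisartan 302, 303, 305 and 306 and 1.78, 2.35, 1.34 and 1.88 in Control 102, 103, 104 and 106. Means were 1.89 ± 0.15 in telmisartan rats and 1.84 ± 0.41 in control rats (SD, n = 4 each), or 3.70-fold and 3.57-fold over normal prostate. All telmisartan rats lay inside the range of the control rats, and Control 103 and Control 104 marked its top and bottom. Repeat spots within an array had an SD of 0.03 to 0.08, after 2 spots marked as outliers were left out on Telmisartan 303 and 1 on Telmisartan 306.

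Timp2, which blocks Mmp2 and also takes part in its activation by Mmp14, had a mean of 0.26 ± 0.50 in telmisartan rats and 0.67 ± 0.14 in control rats (SD, n = 4 each), or 1.20-fold and 1.59-fold over normal prostate. It was at -0.33, 0.78, 0.55 and 0.03 in Telmisartan 302, 303, 305 and 306 and at 0.72, 0.46, 0.76 and 0.75 in Control 102, 103, 104 and 106. Telmisartan 302 and Telmisartan 306 lay below all control rats, and Telmisartan 303 lay above them. Under median centring the control mean was 2.06 in place of 0.67, with the median of all genes moved to 0.67 from 0.05 by that scaling.

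Timp3, the inhibitor that is bound to the matrix, did not stand apart from the reference. It was at -0.18, 0.24, 0.07 and -0.09 in Telmisartan 302, 303, 305 and 306 and at 0.01, 0.07, -0.40 and -0.23 in Control 102, 103, 104 and 106. The reference signal was well above background on 2 of the 4 telmisartan arrays and 3 of the 4 control arrays. Both groups lay on either side of normal prostate.

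In all, 3 of the 9 tested members (Mmp7, Mmp12 and Timp1) lay above 2-fold over the reference in all 4 telmisartan rats and in all 4 control rats, and 0 lay below 2-fold under it. Among all genes tested, 5.19% were above 2-fold in all 4 control rats and 4.18% were below, and for all 8 rats the shares were 3.73% and 3.29%. Since the members were chosen with these levels known, the count is a description. The 3 high genes are known as an epithelial protease, a macrophage protease and an inhibitor, whereas the stromal pair Mmp2 and Mmp14 lay below normal prostate after loess.

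**Figure D1:**
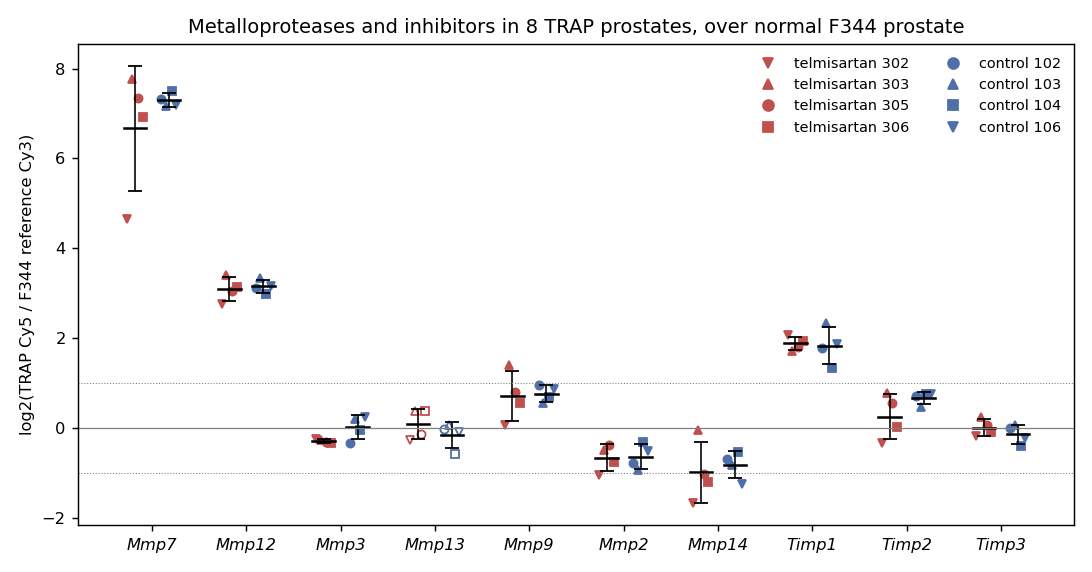
Log2 ratio of TRAP prostate over normal F344 prostate for the 10 genes, with telmisartan rats in red left of control rats in blue, 1 point per rat, bars for mean and SD (n = 4 each) and dotted lines at 2-fold. Open points mark Mmp13, which was not tested. Mmp7, Mmp12 and Timp1 lie above the upper dotted line in all 8 rats, and Telmisartan 302 lies at 4.65 for Mmp7, below the other 7 rats.

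The size of these ratios depended on how they were made. Mmp7 in control rats averaged 7.29 after normexp with loess, 7.08 with no background correction, 7.50 as the ratio of the scanner software and 8.61 under median centring. Mmp9, whose reference spot was not above background, averaged 0.77, 0.43, 2.49 and 0.63 in the same order and 1.18 with a smaller normexp offset of 16. The scanner ratio therefore put Mmp9 above 2-fold in all 4 control rats, which made 4 members, and median centring did so for Timp2.

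**Figure D2:**
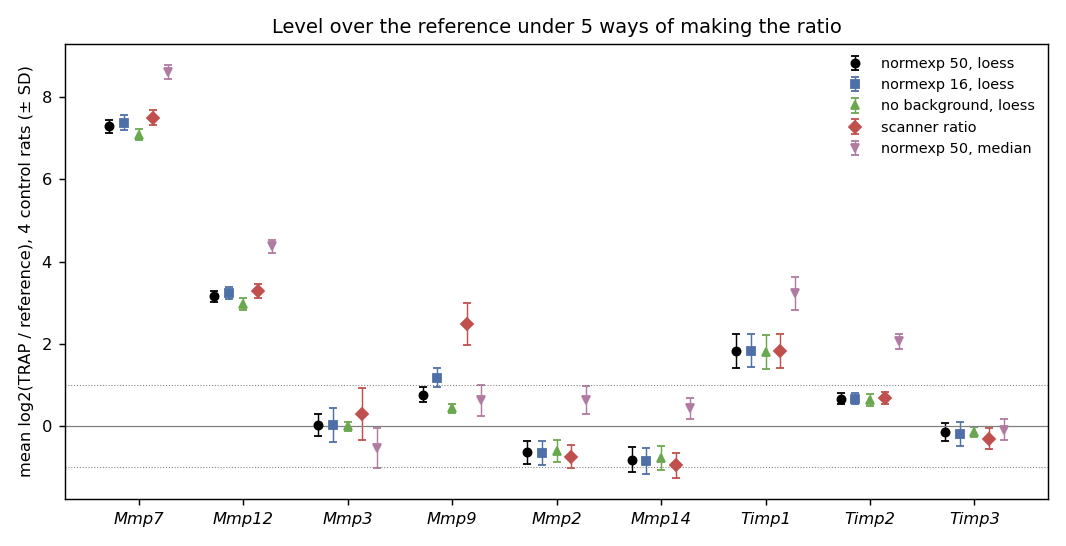
Mean log2 ratio over the reference with SD in the 4 control rats for the 9 tested genes under 5 ways of making the ratio, with dotted lines at 2-fold. Mmp9 moves between 0.43 and 2.49 and median centring lifts most members, while Mmp7, Mmp12 and Timp1 stay above 2-fold throughout.

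Setting telmisartan rats against control rats asks whether the drug changes expression in the tumour-bearing gland. None of the 9 tested members passed the threshold (limma, Benjamini-Hochberg adjusted p under 0.05 over all 23186 genes), where 0% of all genes passed in either direction. At an unadjusted p under 0.05, 0 members were higher in telmisartan rats, against 2.74% of all genes, and 1 was lower, Mmp3, against 2.07% of all genes. Mmp3 entered the test through the control rats, in which it was well above background on 4 of 4 arrays, against 1 of 4 in telmisartan rats, so that nothing is read from that 1 call. No member separated the groups without overlap, which 1.5% of all genes did as higher and 1.23% as lower in telmisartan rats. By sign alone 2 members were higher and 7 lower in telmisartan rats, beside 50.6% of all genes lower, and the median difference was -0.06 for the members and -0.002 for all genes.

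The differences of the gelatinases and of Timp1 were small beside their errors. Telmisartan minus control was -0.02 for Mmp2 (SE 0.18, limma adjusted p = 0.998), and its second probe gave -0.04 without a test. For Mmp9 it was -0.06 (SE 0.24, limma adjusted p = 0.997) and for Timp1 0.05 (SE 0.19, limma adjusted p = 0.997). With SEs of this size, differences of this order were not detectable with 4 rats a group.

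Among the other proteases, Mmp7 differed by -0.62 (SE 0.55, limma unadjusted p = 0.287, adjusted p = 0.982), a 0.649-fold ratio that rested on Telmisartan 302. Without this rat the Mmp7 difference was 0.05 (SE 0.19). Mmp14 differed by -0.17 (SE 0.30, limma adjusted p = 0.996) and by 0.06 without that rat, and Mmp12 by -0.06 (SE 0.14, limma adjusted p = 0.997) and by 0.05 without it. On slide 1, which holds Telmisartan 302, Mmp7 differed by -1.03, and on slide 2 by -0.22.

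Mmp3 differed by -0.31 (SE 0.13, limma unadjusted p = 0.0394, adjusted p = 0.982). Since the probe passed the filter on dim probes through the group in which it was higher, and the signal of 3 treated rats was not well above background, these values are a description of a probe near its floor. The difference was -0.20 on slide 1 and -0.43 on slide 2, and it ran from -0.15 with no background correction, over -0.44 under median centring, to -1.36 in the ratio of the scanner software. Its adjusted p lay between 0.392 and 1.00 over all alternatives in which it was tested.

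Of the inhibitors, Timp2 was lower by sign, with a difference of -0.41 (SE 0.22, limma unadjusted p = 0.0885, adjusted p = 0.982) and 3 of 4 telmisartan rats below the control mean. It was -0.36 on slide 1 and -0.47 on slide 2, and -0.22 without Telmisartan 302. Timp3 differed by 0.15 (SE 0.14, limma adjusted p = 0.982), which was -0.01 on slide 1 and 0.30 on slide 2. For Timp2 the sign was the same under every alternative, while that of Timp3 turned in 4 of them.

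**Figure D3:**
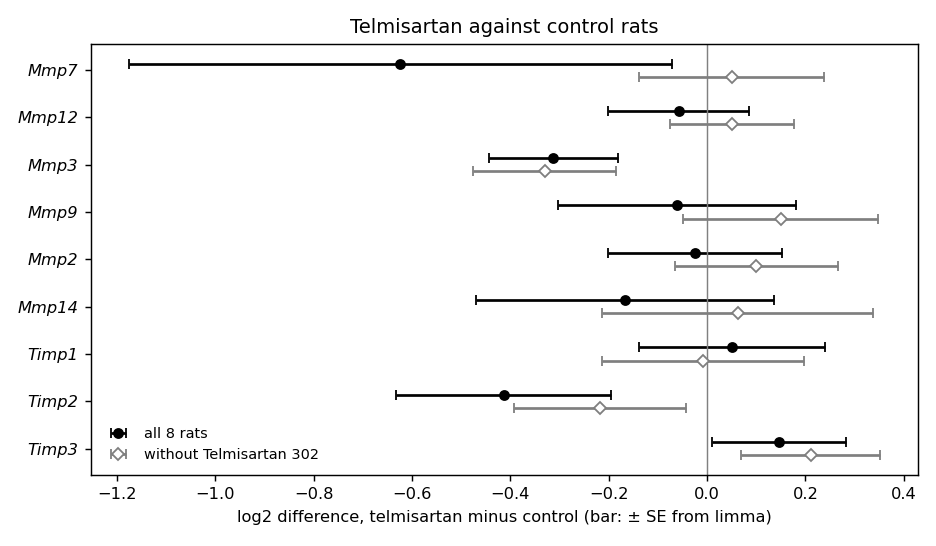
Difference in log2 ratio, telmisartan minus control, for the 9 tested genes with the limma SE, for all 8 rats (filled) and without Telmisartan 302 (open). The values run from -0.62 for Mmp7 to 0.15 for Timp3, and 6 of the 9 cross to the other side of 0 when that rat is left out.

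From rat to rat, a pair of treated rats marked most of the extremes. Telmisartan 302 was the lowest of the 8 rats in 6 of the 9 tested members (Mmp7, Mmp12, Mmp9, Mmp2, Mmp14 and Timp2), and it was the lowest in 18.4% of all genes tested. The same rat was the highest in 19.5% of all genes, and both shares were the largest of the 8 rats. Telmisartan 303 was the highest in 6 of 9 (Mmp7, Mmp12, Mmp9, Mmp14, Timp2 and Timp3), and it was the highest in 12.7% of all genes. Each of the other 6 rats was the extreme one, low or high, in at most 3 of the 9 members. Timp1 ran the other way in both rats, above its mean over the 8 rats in Telmisartan 302 by 0.20 and below it in Telmisartan 303 by 0.13.

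**Figure D4:**
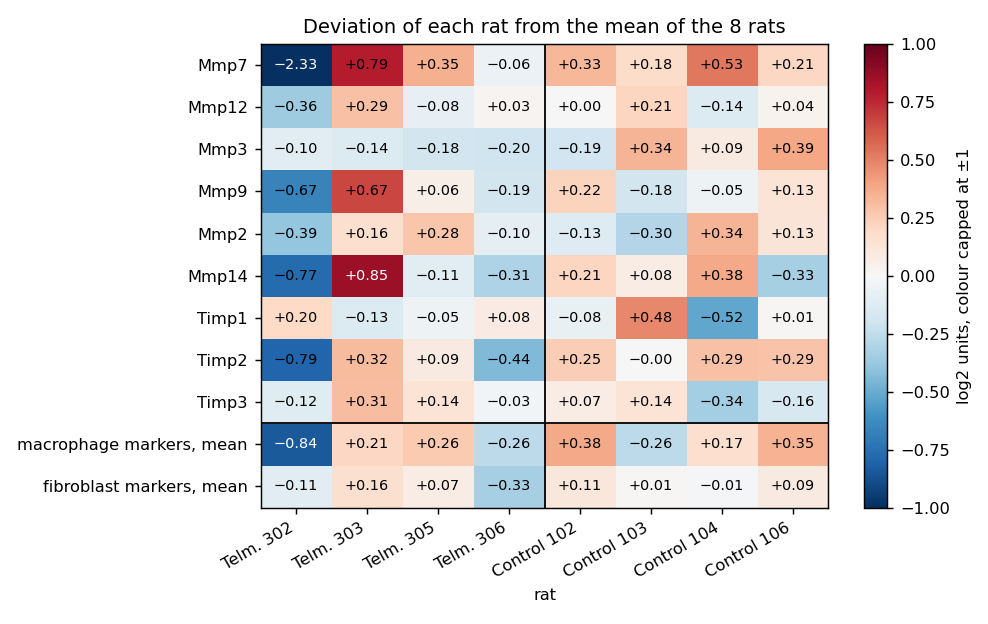
Deviation of each rat from the mean of the 8 rats, in log2 units, for the 9 tested genes and for the means of the macrophage and fibroblast marker lists, with telmisartan rats left of control rats. The column of Telmisartan 302 is negative in all rows but Timp1, down to -2.33 for Mmp7, and the column of Telmisartan 303 is positive in all rows but Mmp3 and Timp1.

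Cell type markers also varied between the rats, and in bulk tissue fewer cells of a type and less RNA per cell cannot be told apart. The mean of 12 macrophage marker genes (of 14 listed) was 0.75, 1.79, 1.84 and 1.32 in Telmisartan 302, 303, 305 and 306 and 1.96, 1.32, 1.75 and 1.93 in Control 102, 103, 104 and 106, lowest in Telmisartan 302. All 12 had a TRAP signal well above background in at least 3 of the 4 rats of each group, so none of the defining markers was at 0, and 10 of the 12 were lower by sign in telmisartan rats with a median difference of -0.40. For 6 of 10 neutrophil markers the mean ran from 0.11 to 1.63 in telmisartan rats and from 0.62 to 1.63 in control rats. The reference was well above background on no array for Csf3r, S100a8, S100a9, Camp and Cxcr2 of these. Cxcr2 had a TRAP signal well above background in 1 of 4 telmisartan and 3 of 4 control rats. For 11 of 11 T cell markers the list mean ran from 0.30 to 1.87 in telmisartan rats and from 0.55 to 2.13 in control rats. The reference was likewise well above background on no array for Cd2, Cd4, Cd3e and Cd247. By sign 11 of 11 T cell markers were lower in telmisartan rats with a median difference of -0.56. Beside these sign counts, 50.6% of all genes were lower. The T cell means of the groups overlapped, with Control 103 at 0.55, below Telmisartan 303, 305 and 306 at 0.95, 1.87 and 1.18. In the neutrophil and T cell lists Telmisartan 302 was again the lowest rat.

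Of the tissue's own compartments, 13 of 13 fibroblast markers were measured. The list mean was -0.88 to -0.38 in telmisartan rats and -0.55 to -0.43 in control rats. After loess it was below normal prostate, as were Mmp2 and Mmp14. The single markers differed in direction. Sfrp2 stood at 1.67 in telmisartan and 2.02 in control rats, and Col1a1 at -2.07 and -1.77. Thy1 had a TRAP signal well above background in only 2 of 4 rats of each group. Smooth muscle markers (7 of 9) lay at -1.28 to -0.81 in telmisartan rats and -1.56 to -1.03 in control rats, with overlap between the groups. By sign 6 of 7 were higher in telmisartan rats, with a median difference of 0.17, beside 50.6% of all genes lower. At an unadjusted p under 0.05 in limma 3 of them were higher, against 2.74% of all genes, and 0 passed the adjusted threshold. Endothelial markers (9 of 9) lay at -0.58 to -0.16 in telmisartan rats and -0.57 to -0.20 in control rats, and basal epithelial markers (7 of 8) at -1.05 to -0.46 in telmisartan rats and -1.47 to -0.60 in control rats. Of the endothelial markers, Pecam1, Robo4 and Tek had a TRAP signal well above background in 1 of 4 telmisartan rats and Cdh5 in 2 of 4. In control rats the counts were 4, 3, 3 and 4 of 4. The other endothelial markers lay apart, with Cldn5 at -1.73 in telmisartan and -1.92 in control rats and Kdr at -0.10 and 0.66. The part of any of these cell types in the levels of the members was not tested.

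Each of the 9 members was set against the mean of the macrophage and of the fibroblast list over the 8 rats, 18 relations in all, with exact permutation p-values over 40320 pairings. After Benjamini-Hochberg adjustment 0 of 18 passed by Pearson's r and 1 by Spearman's rho. That 1 was Mmp9 with the fibroblast list, at rho = 0.952 (exact permutation p = 0.00114, adjusted p = 0.0205) and r = 0.664 (exact permutation p = 0.0927, adjusted p = 0.278). The r was 0.913 after leaving out Telmisartan 302 and 306, whose list means lay farthest from the median, and 0.687 with slide means removed. Mmp9 is a dim probe, with the reference well above background on no array and the TRAP signal of Telmisartan 302 not well above it. In none of the 18 relations were the means of the treatment groups removed.

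For the inhibitor Timp2 and the macrophage list r was 0.926 (exact permutation p = 0.00337, adjusted p = 0.0607) and rho 0.619 (exact permutation p = 0.115, adjusted p = 0.389), with r = 0.701 without the 2 farthest rats and 0.939 with slide means removed. With the fibroblast list Timp2 had r = 0.757 (exact permutation p = 0.0330, adjusted p = 0.12) and rho = 0.714 (exact permutation p = 0.0576, adjusted p = 0.346), with r = 0.453 without those rats and 0.850 with slide means removed. Mmp7 stood at r = 0.857 (exact permutation p = 0.0149, adjusted p = 0.0893) and rho = 0.571 (exact permutation p = 0.151, adjusted p = 0.389) with the macrophage list, and its r fell to 0.208 without those rats, so the relation rests on them. For Mmp9 and the macrophage list r was 0.822 (exact permutation p = 0.0103, adjusted p = 0.0893) and rho 0.857 (exact permutation p = 0.0107, adjusted p = 0.0964), with r = 0.491 without the 2 rats and 0.879 with slide means removed. The macrophage elastase Mmp12 stood at r = 0.448 (exact permutation p = 0.259, adjusted p = 0.424) and rho = 0.238 (exact permutation p = 0.582, adjusted p = 0.699), and its r was -0.437 without the 2 rats.

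The genes most like Mmp7 over the 8 rats, by Pearson's r among all tested genes with a symbol, were Cxcl3, a neutrophil chemokine (r = 0.986, rho = 0.619), Rasd1, a small GTPase (r = 0.985, rho = 0.810), and Noxo1, an organiser of an NADPH oxidase (r = 0.982, rho = 0.738). Without Telmisartan 302 the r values were 0.784, 0.854 and 0.814. In that rat Cxcl3 stood at 0.81 while the other 7 rats spanned 2.93 to 3.65, Rasd1 at 1.30 against 1.91 to 2.23, and Noxo1 at 1.06 against 2.34 to 2.96. The likeness was higher with that rat than without it, and it is given as a description.

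The rest of the protease network was counted from lists. Of 18 other metalloproteases of the family, 11 were tested, 0 passed the adjusted threshold and 0 had an unadjusted p under 0.05. By sign 2 were higher and 9 lower in telmisartan rats, beside 50.6% of all genes lower, with a median difference of -0.09. The TRAP signal of Mmp1b was well above background in 2 of 4 telmisartan rats and that of Mmp25 in 1 of 4, against 4 of 4 control rats for each. For Mmp24, Mmp8, Mmp19 and Mmp20 it was 3 of 4 against 4 of 4. Since these probes were not well above background in every treated rat, nothing is read from the sign count. In all 4 control rats 0 of the 11 lay above or below 2-fold over the reference, against 5.19% and 4.18% of all genes. The reference was well above background on no array for Mmp1b, Mmp8, Mmp19, Mmp20 and Mmp25, and on 1 for Mmp24 and Mmp15. The ratios of these genes are limited by that floor, so the count of 0 does not show that they were near normal prostate. The 3 of the 11 with the smallest p were Mmp1b at -0.26 (SE 0.12), Mmp24, a membrane-type protease, at -0.20 (SE 0.12) and Mmp16, another membrane-type protease, at -0.18 (SE 0.13). Of the chromosome 8 neighbours of the members, Mmp8, Mmp1b and Mmp20, named for their place, averaged 0.44, 0.01 and 0.84 in telmisartan rats and 0.53, 0.27 and 0.79 in control rats, with the reference not well above background on any array.

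Of 15 activators and other regulators of the plasmin system and of protease activity, 12 were tested. Of these, 0 passed the adjusted threshold, and the median difference was -0.05. At an unadjusted p under 0.05, 2 were lower and 0 higher, against 2.07% and 2.74% of all genes. Pcsk6, a proprotein convertase, differed by -0.46 (SE 0.15, limma unadjusted p = 0.0134, adjusted p = 0.974), and Plat, the tissue plasminogen activator, by -0.42 (SE 0.21, limma adjusted p = 0.982).

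Over the reference, 4 of the 12 genes of that list lay above 2-fold in all 4 control rats, against 5.19% of all genes tested, and 1 lay below, against 4.18%. The 4 were Lcn2, which binds and stabilises Mmp9 in humans, at 3.55 in telmisartan and 3.89 in control rats, the broad protease inhibitor A2m at 3.48 and 3.66, Plau, the urokinase plasminogen activator, at 2.03 and 2.08, and Plg, plasminogen, at 1.43 and 1.36. The 1 below was Furin, a proprotein convertase that activates membrane-type metalloproteases, at -1.34 in telmisartan and -1.31 in control rats, and the related Pcsk6 stood at -1.70 and -1.24. Lcn2, A2m, Plau, Plg and Furin were named after their values were seen.

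Of 18 ADAM and ADAMTS proteases, 13 were tested, 0 passed the adjusted threshold, and at an unadjusted p under 0.05 1 was higher, Adam28, at 0.50 (SE 0.11, limma adjusted p = 0.905), and 1 lower, Adamts1, at -0.46 (SE 0.13, limma adjusted p = 0.934). Adamts5, an aggrecan-cleaving enzyme, differed by -0.27 (SE 0.16, limma adjusted p = 0.982). The list's median difference was -0.11. Among all genes, 2.74% were higher and 2.07% lower at an unadjusted p under 0.05.

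Of 23 inducers and transcription factors of the AP-1 and ETS families, which are known to drive metalloprotease promoters, 22 were tested. Of these, 0 passed the adjusted threshold, and the median difference was -0.11. At an unadjusted p under 0.05, 0 were higher and 1 lower, against 2.74% and 2.07% of all genes. That 1 was Fos, a subunit of AP-1, with a mean of -0.69 ± 0.34 in telmisartan rats and -0.30 ± 0.14 in control rats (difference -0.39, SE 0.16, limma unadjusted p = 0.0389, adjusted p = 0.982). The ETS factor Etv4 differed by 0.22 (SE 0.11) and the AP-1 subunit Fosl2 by 0.21 (SE 0.11). Binding of AP-1 to the promoter letters shown above was not tested.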

How the data were processed

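Per the file headers, the arrays were read with Agilent Feature Extraction 9.1, and the authors deposited for each spot an uncorrected mean intensity and local background intensity in each channel. The deposited log10 ratio of Cy5 over Cy3 had been background-subtracted and dye-normalized by that software, and the deposited series matrix matched it spot by spot (largest difference 0.005, column medians 0), so that scale, centring and direction are those of the scanner ratio. Dyes were never swapped. Flags, of no unit, are those of the scanner software.

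From the intensities, log2 ratios were made with normexp (offset 50) and loess in limma 3.58.1 (R 4.3.3). Control and outlier spots were left out, spots of a probe averaged, probes kept if Cy5 was well above background on 4 or more of 8 arrays, and the brightest probe used per gene. Telmisartan and control rats were compared with lmFit and eBayes, two-sided, Benjamini-Hochberg adjusted over 23186 genes at a threshold of 0.05. The fit was tested on simulated data. Names came from RefSeq (GRCr8), by accession for 10726 probes, symbol for 5575 and older symbol for 3730. Member probes go by the name in the file, and the remaining 20970 probes also kept that name. Of the 23186 genes tested, 11409 had a gene symbol, so ranks and shares among all genes include entries without a symbol. Of each list up to 3 genes by smallest p are named; 1 gene that this rule takes is not reported here. Members and lists were chosen with earlier results of these data known. The treated rats' label names both doses of the study, 2 and 10 mg/kg, and only the higher is tied to arrays in the design text; the lower was not analysed here. No source used here says whether the reference was 1 pool.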

Additional observations from a re-analysis of the deposited data

Results flagged for a closer look

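Of 46 groups of 4 rats scanned for a lone extreme value, 3 had a rat whose gap to the nearest other, as a share of the group's range, was over Dixon's critical value, and chance gives such a rat in about 1 of 20 groups. Timp2 in Control 103 stood at 0.46, below the other 3 control rats at 0.72 to 0.76. The mean of the luminal epithelial markers in Telmisartan 302 stood at -0.25, below the other treated rats at -0.01 to 0.03. The mean of the other metalloproteases of the family in Telmisartan 305 stood at 0.16, above the other treated rats at 0.04. The Mmp7 value of 4.65 in Telmisartan 302 was not among them, because the other 3 treated rats were also spread, over 6.93 to 7.77.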

How the results depend on the processing

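The count of tested genes past the threshold was 0 and ran from 0 to 1 when each rat was left out in turn: it was 1 without Control 102 and 1 without Telmisartan 303, in neither case a member. At an unadjusted p under 0.05 there were 1117 genes, 466 on slide 1 alone and 2598 with array weights. The count of members past the threshold was 0 under every alternative run, and that of members above 2-fold in all 4 control rats was 3, or 4 under median centring and with the scanner ratio or the series matrix. Of 205 differences of single members under an alternative, 179 kept their direction and 26 turned, none of them past the threshold; the cause was not tested. Of these, 12 came from leaving out 1 rat, where the difference ran from -0.99 to 0.050 for Mmp7, -0.13 to 0.10 for Mmp2, -0.30 to 0.15 for Mmp9, -0.17 to 0.051 for Mmp12, -0.48 to 0.062 for Mmp14 and -0.11 to 0.22 for Timp1; the value without Telmisartan 302 was the highest of these ranges for all but Timp1, which stood at -0.0082. On slide 1 alone Mmp2 was 0.097, Timp1 -0.17 and Timp3 -0.010, and on slide 2 alone Mmp12 was 0.024. Median centring gave 0.060 for Mmp2 and 0.020 for Mmp12, array weights 0.031 for Mmp12, and no background correction 0.048 for Mmp9. The scanner ratio gave 0.0051 for Mmp2 and -0.14 for Timp3, the series matrix 0.0052 and -0.14, and Cy5 alone 0.052 for Mmp9 and -0.061 for Timp3. Of 99 levels over the reference, 81 moved by less than 1 SD. No paired analysis was possible because the groups share no replicate numbers; slide as a block changed no call. Mmp13, unfiltered, differed by 0.25 (SE 0.19, limma adjusted p = 0.902). The number of arrays and dim spots (Mmp3, Mmp13, Mmp9) limit precision, and 1-spot probes carry no repeat.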
